A study of Drosophila melanogaster with 2 samples.

Results

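Of 3533 binding peaks of the fly protein CG9705 in the optimal set, 857 (24.3%, 95% exact binomial interval 22.9 to 25.7) had their summit within 500 bp of transcript starts of 2 or more protein-coding genes. These 857 shared-promoter peaks were chosen by position alone, without use of their scores. Another 1105 summits (31.3%) had exactly 1 such gene within 500 bp and are called single-gene peaks here, and 1571 (44.5%) had none. Chromatin immunoprecipitation followed by sequencing (ChIP-seq) had been carried out on whole Drosophila melanogaster at the wandering stage of the last larval instar, when larvae leave the food before pupation, with the sexes mixed. All animals came from a single transgenic line that expresses CG9705 with green fluorescent protein at its C terminus. There was 1 group of 2 biological replicates, listed as separate biosamples, and no untreated or untagged group was used here. The labels conflict on what the libraries are, since the free text names an input control, while the antibody entry, the assay title and a listed separate control name a ChIP of CG9705. The libraries were read here as the ChIP. If they were input, the peaks would mark chromatin that is recovered more often and would not be binding sites.

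The files give peaks and no read counts, so the sequencing depth is unknown. Intervals below are exact (Clopper-Pearson) binomial intervals and cover counting error only. The spread between the samples is given by the same value from the 3533 highest-scoring peaks of replicate 1 alone and of replicate 2 alone, and with 1 group no p-value was computed. Since whole larvae were used, signal in many cells and strong signal in few cells cannot be told apart.

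In the compact genome of the fly, many genes lie head to head: they sit on opposite strands with their transcripts running away from each other, and the short stretch between the starts serves as promoter for both. Genes arranged this way are often used in most cells, such as those for ribosomes, mitochondria and the transcription machinery. Promoters of such genes commonly carry the DNA replication-related element (DRE), Motif 1 or Motif 7, whereas promoters of developmentally regulated genes more often carry GAGA repeats, a TATA box or an initiator. CG9705 encodes a protein with a cold-shock domain, a fold that binds single-stranded nucleic acids.

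The stretch between the starts is shown first for the 5 highest-scoring head to head members whose starts lay at most 300 bp apart and for which sequence is printed, since nearly all members have this layout. The letters come from the RefSeq Release 6 assembly, which dm6 carries, and run along the plus strand, with the minus-strand gene's start as the first base and the plus-strand gene's start as the last. Capitals mark the DRE (TATCGATA), Motif 1 (GGTCACACT), the core of Motif 7 (CANCNCTA) or the E-box CAGCTG on either strand. The intervals are chr3R:15229408-15229665, chr3L:21304658-21304697, chr3L:5139395-5139619, chr2L:8376797-8377035 and chr3R:29736745-29736965.
Art3/mRpS10: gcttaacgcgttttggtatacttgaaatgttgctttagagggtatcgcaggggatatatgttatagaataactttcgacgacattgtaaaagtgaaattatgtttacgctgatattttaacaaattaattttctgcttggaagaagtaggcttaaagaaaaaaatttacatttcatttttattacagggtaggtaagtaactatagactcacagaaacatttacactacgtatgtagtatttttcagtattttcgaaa
CG11309/CG7632: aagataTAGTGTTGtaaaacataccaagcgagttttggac
Tcs5/CHMP2B: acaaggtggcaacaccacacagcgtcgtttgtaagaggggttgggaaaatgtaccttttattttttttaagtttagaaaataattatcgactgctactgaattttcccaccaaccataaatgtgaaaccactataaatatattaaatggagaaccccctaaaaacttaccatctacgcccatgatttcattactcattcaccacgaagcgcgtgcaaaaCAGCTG
CG13390/CG17294: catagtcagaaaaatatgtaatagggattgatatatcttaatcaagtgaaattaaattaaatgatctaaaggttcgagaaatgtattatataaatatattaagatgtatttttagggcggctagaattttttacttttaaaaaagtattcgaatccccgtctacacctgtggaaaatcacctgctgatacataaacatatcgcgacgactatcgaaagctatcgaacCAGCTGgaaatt
CIA30/CG7601: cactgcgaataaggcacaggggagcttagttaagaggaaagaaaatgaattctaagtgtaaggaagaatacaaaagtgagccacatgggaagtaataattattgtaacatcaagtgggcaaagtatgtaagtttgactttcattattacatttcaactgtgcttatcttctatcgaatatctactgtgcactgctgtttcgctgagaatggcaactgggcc
In the Art3/mRpS10 stretch the summit was base 126 of 258, and none of the 4 marked motifs occurs there. The CG11309/CG7632 stretch is 40 bases long and holds the Motif 7 core on the minus strand, and its summit lay outside it. The Tcs5/CHMP2B summit was base 104 of 225 and the CIA30/CG7601 summit base 118 of 221, both near the centre.

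The next 3 windows of 81 bases, centred on the summit, show the DRE where it lay within 30 bp of the summit of a head to head member, again the highest-scoring ones, chosen after their values were seen. Their intervals are chr3R:11216298-11216378, chr2L:8320242-8320322 and chr3L:19871041-19871121 on the plus strand.
RpS25/CG4820: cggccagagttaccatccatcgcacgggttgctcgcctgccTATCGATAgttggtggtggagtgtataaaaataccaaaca
strat/mtsh: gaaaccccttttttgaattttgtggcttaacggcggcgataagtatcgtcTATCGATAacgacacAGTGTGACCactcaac
Rab8/Usp32: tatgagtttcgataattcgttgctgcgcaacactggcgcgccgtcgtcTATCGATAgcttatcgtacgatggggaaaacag
The strat/mtsh window holds both a DRE and, on the minus strand, Motif 1. RpS25 is a protein of the small ribosomal subunit and Rab8 a small GTPase of membrane traffic.

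Head to head pairs made up nearly all of the shared promoters. The nearest 2 genes were head to head at 795 of 857 members (92.8%, interval 90.8 to 94.4), with 93.2% in replicate 1 alone and 92.1% in replicate 2 alone. At the other 62 members the transcripts of the nearest 2 genes overlapped. Tandem pairs, which run one after the other on the same strand, numbered 0 of 857, which allows a share of up to 0.430%, and tail to tail pairs likewise numbered 0. Replicate 2 alone held 2 tandem members of 888. The annotation itself sets much of this. Head to head pairs are 2616 (74.3%) of all 3520 annotated pairs with starts within 1000 bp. With starts within 500 bp of each other there are 1954 head to head pairs, 462 overlapping pairs, only 18 of the 354 tandem pairs and 0 tail to tail pairs. These are counts of pairs and not of peaks.

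Most members had 2 genes within 500 bp of the summit (816), while 36 had 3, 3 had 4, 1 had 5 and 1 had 10. The members covered 1686 protein-coding genes. The peak with 10 genes, at rank 50 of the optimal set and rank 49 and 50 in replicates 1 and 2, lay at the pre-mod(mdg4) locus, where the annotation lists as separate genes the segments that are trans-spliced to mod(mdg4) transcripts, a chromatin insulator gene. The peak with 5 genes lay at NC2alpha/PIG-M, rank 1918, and NC2alpha is a subunit of the NC2 repressor of TATA-binding protein. Of the 62 overlapping members, 53 had both genes on the same strand and 47 had coinciding starts, as at Sesn/CG46429 (rank 161), lama/CG46456 (rank 230) and HemK2/Snapin (rank 232). At those 47 the nearest 2 genes therefore share 1 annotated start. Some of these peaks have a further gene within 500 bp, such as Tnpo-SR at HemK2/Snapin.

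At most head to head members the summit lay in the gap between the starts, but at gaps of 0 to 100 bp most summits lay outside it. The starts were 2 to 737 bp apart, with a median of 288 bp and quartiles of 215 and 382.5 bp. Ranges of this distance are given with the upper limit included and the lower one not. The summit lay between them at 673 of 795 members (84.7%, interval 82.0 to 87.1), with 85.3% in replicate 1 alone and 84.4% in replicate 2 alone. The share followed the width of the gap. With starts 0 to 100 bp apart it was 33.3% (32 of 96), with 100 to 200 bp 63.9% (53 of 83), with 200 to 300 bp 93.5% (246 of 263), with 300 to 500 bp 96.2% (275 of 286) and with 500 to 1000 bp 100% (67 of 67). A wider gap leaves more room for a summit by construction, and no test was made of it.

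Within gaps of 200 to 300 bp the summit sat close to the middle, at a median of 36.5 bp from the midpoint and 94 bp from the nearest start. In gaps of 300 to 500 bp the median was 84.5 bp from the midpoint and 106.5 bp from the nearest start. A wider gap leaves more room away from the midpoint by construction. The 2 replicates gave 39 and 42 bp from the midpoint for the narrower gaps and 70.5 and 83.75 bp for the wider ones. Set against the nearest start, the median head to head summit was 85 bp upstream with quartiles of 119 and 30.5 bp upstream. The median single-gene summit was 122 bp upstream with quartiles of 232 and 38 bp upstream. A head to head summit is measured to the nearer of 2 starts, which shortens its distance by construction, so these medians are not a like comparison. The share of summits upstream of the nearest start hardly differed, at 84.8% of members (727 of 857) and 84.1% of single-gene peaks (928 of 1103 that were not exactly on a start), and the intervals overlapped.

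**Figure D1:**
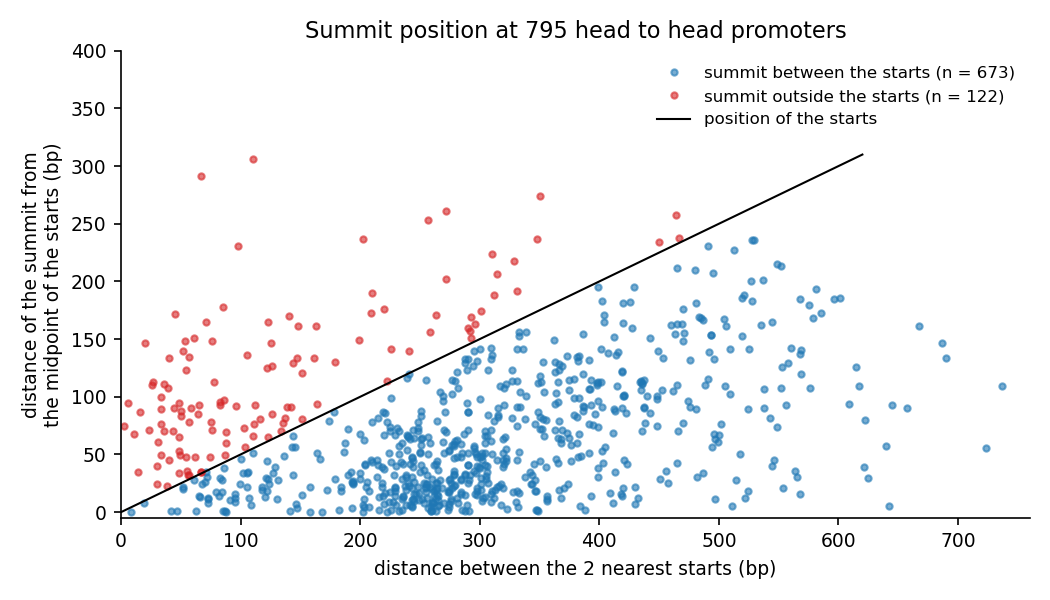
Distance of the summit from the midpoint of the 2 nearest starts (y axis, bp) against the distance between those starts (x axis, bp) for the 795 head to head members of the optimal set, 1 point a peak. The line marks the starts themselves: 673 points lie below it, between the starts, and 122 above it, and points at gaps of 200 to 300 bp crowd near the midpoint.

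A second summit was rare, and 46 of the 57 pairs with one had gaps of more than 300 bp. Counting each annotated pair once, 57 of the 952 head to head pairs with a summit within 500 bp of either start (5.99%) had 2 or more summits. The count was 6 of 130 (4.62%) at gaps of 0 to 100 bp, 1 of 108 (0.926%) at 100 to 200 bp, 4 of 274 (1.46%) at 200 to 300 bp, 29 of 269 (10.8%) at 300 to 500 bp and 17 of 171 (9.94%) at 500 to 1000 bp, which is no steady trend. The stretch searched reaches 500 bp beyond each start and so grows with the gap. Wider gaps thus leave more room for a second summit by construction, and the part of this in the counts was not tested. RpL28/eIF1 has 2 summits and pairs a protein of the large ribosomal subunit with a translation initiation factor, 381 bp apart. Its higher-scoring summit, rank 274, lay 56 bp upstream of RpL28, and the other, rank 2193, lay 108 bp upstream of eIF1. In replicates 1 and 2 they ranked 504 and 188 for the RpL28 side and 2117 and 2734 for the eIF1 side.

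The next question was which of the annotated pairs were bound, counted over pairs rather than peaks. A gene with several close neighbours enters several pairs, and the 2616 head to head pairs hold 4960 different genes. Pairs at the same promoter can share a summit and are not independent, which the intervals leave out. A summit lay within 500 bp of either start at 952 of 2616 head to head pairs (36.4%, interval 34.5 to 38.3), at 140 of 545 overlapping pairs (25.7%), at 48 of 354 tandem pairs (13.6%) and at 0 of 5 tail to tail pairs (0%). Among genes with no other protein-coding start within 1000 bp, called isolated genes, it was 737 of 7960 (9.26%, interval 8.63 to 9.92). The replicates alone gave 34.3% and 37.8% for head to head pairs and 8.97% and 9.54% for isolated genes, so the gap between these classes was far wider than the spread between the replicates. A pair has 2 starts and so a longer window. With 1 window of 500 bp each side of the midpoint, 929 of 2616 pairs (35.5%) had a summit. That window still takes in both starts. A pair thus counts as bound through either of 2 genes and an isolated locus through 1 gene, and the part of this in the shares was not tested. Expression was not measured. At least 1 of the relaxed lists had a peak at 85.7% of head to head pairs and 52.0% of isolated genes. Among those loci alone, 952 of 2241 head to head pairs (42.5%, interval 40.4 to 44.6) and 737 of 4140 isolated genes (17.8%, interval 16.6 to 19.0) had an optimal summit.

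Binding of head to head pairs differed with the distance between the starts, with a step near 200 bp. The share bound was 26.8% (40 of 149) at 150 to 200 bp, and it was 51.3% (122 of 238) at 200 to 250 bp, 52.2% (152 of 291) at 250 to 300 bp and 53.6% (118 of 220) at 300 to 350 bp. It was 38.5% (67 of 174) at 350 to 400 bp. Pooled over 200 to 350 bp, a range chosen after these values were seen, 392 of 749 pairs were bound (52.3%, interval 48.7 to 56.0), against 560 of 1867 at all other distances (29.99%, interval 27.9 to 32.1). The replicates alone gave 51.1% and 52.7% for 200 to 350 bp, against 27.5% and 31.9% elsewhere. With 1 window of equal length at the midpoint the range held 51.9% bound, and with 1 start per gene 52.3%, beside 26.8% and 26.4% at 150 to 200 bp under these settings. Overlapping pairs with coinciding starts, which have no gap, were bound at 98 of 360 (27.2%).

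**Figure D2:**
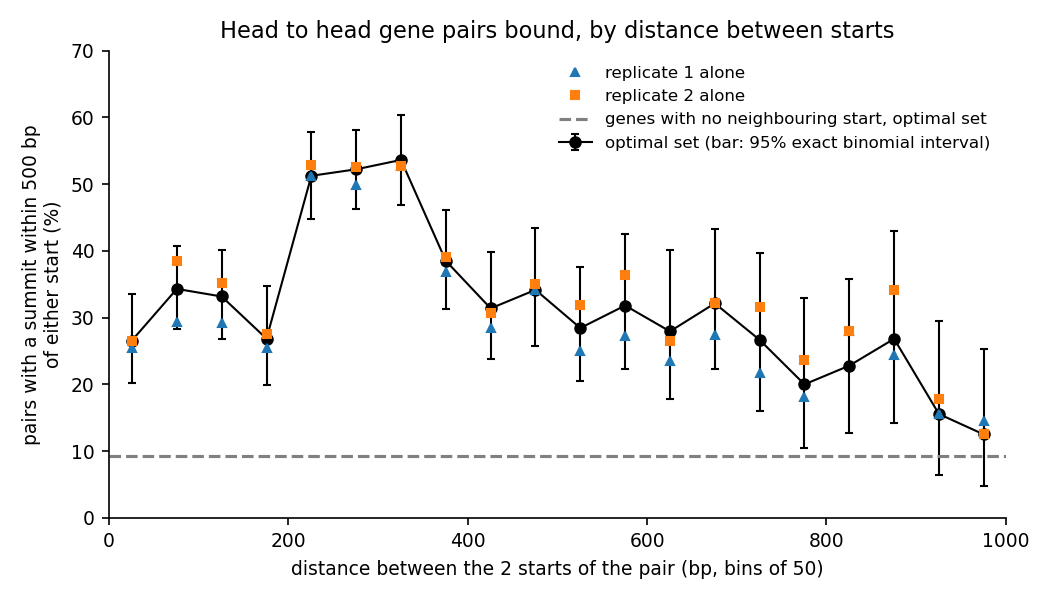
Share of annotated head to head pairs with a summit within 500 bp of either start (y axis, %) by distance between the starts (x axis, bins of 50 bp), in the optimal set with 95% exact binomial intervals and in each replicate alone; the dashed line is the share of isolated genes in the optimal set (9.26%). The 3 bins that make up 200 to 350 bp lie between 51.3% and 53.6%, with 26.8% in the bin just below and 38.5% in the bin just above.

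Head to head pairs on the X were bound less often than those elsewhere, at 112 of 392 (28.6%, interval 24.1 to 33.3) on the X and 840 of 2224 (37.8%, interval 35.7 to 39.8) off it. Replicate 1 alone gave 27.0% on the X and 35.5% off it, and replicate 2 alone 30.4% and 39.2%. Within the range of 200 to 350 bp, 43 of 107 pairs on the X (40.2%) and 349 of 642 off it (54.4%) were bound. The lower X copy number of males, which were pooled with females, and a lower share of bound pairs cannot be told apart. On the fourth chromosome 2 of 11 pairs were bound, and 3R had the highest share of the arms, with 289 of 674 (42.9%).

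Shared-promoter peaks had a higher median score than other peaks within each list, although members were 29 of the 100 best and single-gene peaks 39. The score is the deposited signal value of a peak, its scale is not stated, and it is used here only as a percentile within its own list, where 100 is the highest. The median percentile was 55.7 for members, 48.6 for single-gene peaks and 47.4 for peaks with no gene. Replicate 1 alone gave 55.8 for members, 47.5 for single-gene peaks and 48.5 for peaks with no gene, and replicate 2 alone gave 55.8, 48.4 and 47.3 in the same order. The quartiles overlapped widely, at 30.9 to 77.3 for members and 24.3 to 76.1 for single-gene peaks. Among members the median was highest with starts 200 to 300 bp apart, at 61.4, and lowest at 100 to 200 bp, at 41.6. The replicates alone gave 61.4 and 59.3 at 200 to 300 bp, and 47.4 and 48.9 at 100 to 200 bp. Members with 3 or more genes had a median of 51.9 (n = 41) and those with 2 genes 55.7 (n = 816).

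**Figure D3:**
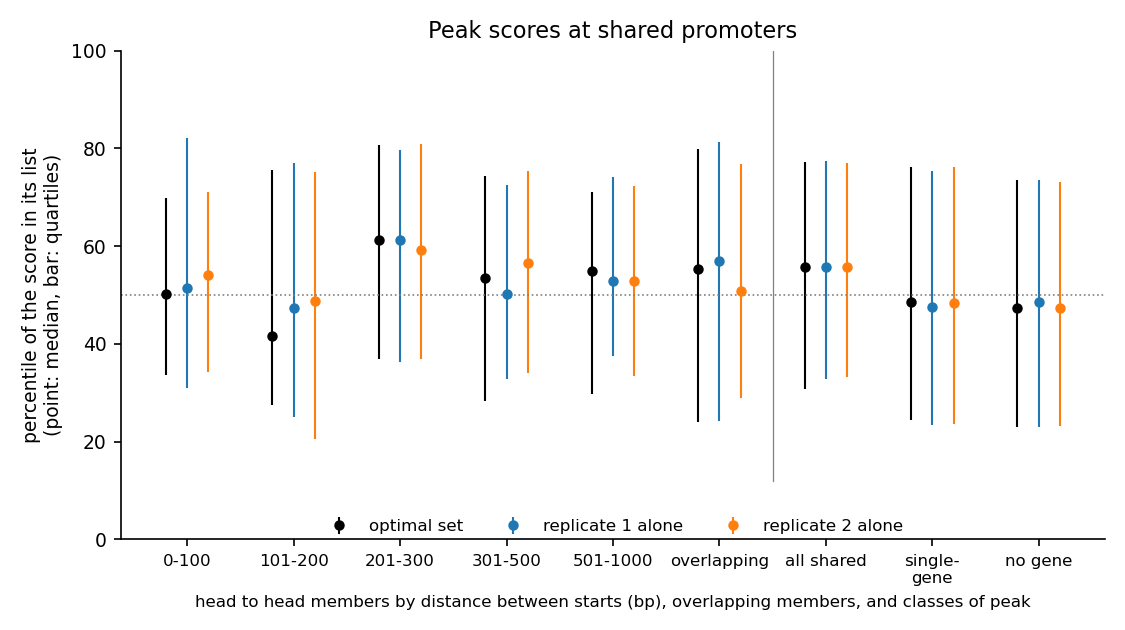
Percentile of the score within its list (y axis; point, median; bar, quartiles) for head to head members by distance between the starts, overlapping members, all shared-promoter peaks, single-gene peaks and peaks with no gene (x axis), in the optimal set and in each replicate alone. The medians of all shared-promoter peaks are 55.7 to 55.8 in the 3 lists and those of single-gene peaks 47.5 to 48.6.

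By rank, members were spread through the optimal set rather than gathered at its top. They were 29 of the 100 best peaks (29.0%), 25.5% of the next 400, 26.4% of the next 500, 28.5% of the next 1000 and 20.2% of the last 1533. Below the optimal set, in the pooled relaxed list, shared promoters made up 13.6% of the next 3967 peaks, 5.55% of the 7500 after those and 2.39% of the lowest 15000. Single-gene peaks, 31.3% of the optimal set, were 39.0% of the 100 best, then 35.2%, 27.2%, 29.3% and 32.4% of the same tiers down to the last 1533, and 33.9%, 25.5% and 16.6% of the 3 lower tiers. The best 500 peaks thus held more single-gene peaks than their overall share, and members (131 of 500, 26.2%) were within counting error of theirs (24.3%).

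The members recurred between the replicates about as often as other peaks. A summit within 100 bp was among the 3533 best of both replicates for 660 of 857 members (77.0%, interval 74.0 to 79.8), for 814 of 1105 single-gene peaks (73.7%, interval 71.0 to 76.2) and for 2631 of all 3533 peaks (74.5%). Members recurred more often in replicate 2 (793, 92.5%) than in replicate 1 (717, 83.7%). A match anywhere in the relaxed lists of both replicates was found for 816 members. Of the remaining 41, 28 had no match in replicate 1 and 13 none in replicate 2. Across those 816 members the ranks in the replicates had a Spearman rho of 0.814, and across 1058 single-gene peaks 0.758. These peaks come from the same libraries as the optimal set, so the values describe the lists and test nothing.

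The 15 highest-scoring members that recurred in both replicates were all head to head and all within the 48 best peaks of the optimal set. Their ranks were 9 to 109 in replicate 1 and 6 to 45 in replicate 2. At 13 of the 15 the summit lay between the starts, and at 9 of the 15 the starts were 200 to 350 bp apart, a distance that 369 of all 795 head to head members had. The best was Art3/mRpS10 at rank 7, and at ranks 9 and 6 in replicates 1 and 2. It joins a protein arginine methyltransferase with a protein of the small mitochondrial ribosomal subunit, and its summit lay 125 bp upstream of Art3 and 132 bp upstream of mRpS10.

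Next came CG11309/CG7632 at rank 13, and at ranks 11 and 13 in the replicates, with starts 39 bp apart. Its summit lay 88 bp downstream of the CG11309 start and 127 bp upstream of the CG7632 start, outside the gap. Pal1/Pdrg1 followed at rank 14 with a gap of 346 bp. Pal1 is a lyase that finishes the amidation of neuropeptides, and ranks in the replicates were 17 and 11. Tcs5/CHMP2B, with a kinase of the tRNA-modifying KEOPS complex and a subunit of the membrane-cutting ESCRT-III complex, ranked 17, and 18 and 15 in the replicates. CG18428/eIF4EHP, whose second gene encodes a cap-binding repressor of translation, ranked 20, and 16 and 25 in the replicates.

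The other members of the 15 were CG13390/CG17294, CIA30/CG7601, CG3552/CG3437, CG5611/Mtl, CenG1A/mRpS23, Arl1/brm, Atat/Shc, CG13018/CG13016, Chro/Ssl1 and RpS27/Nup37. CIA30 is an assembly factor of respiratory complex I. Arl1 is a GTPase of the Golgi and brm the ATPase of the SWI/SNF chromatin remodeller. Chro is a chromodomain protein of interbands, and Ssl1 a subunit of the transcription factor TFIIH. At Chro/Ssl1 the starts were 105 bp apart and the summit lay 84 bp inside Chro, the other case outside the gap. RpS27/Nup37 differed most between the replicates, at rank 109 in replicate 1 and rank 33 in replicate 2. It was rank 48 in the optimal set, with its summit 6 bp upstream of RpS27 and 138 bp upstream of Nup37.

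CG9705 itself lay at a shared promoter. Its only optimal peak, at chr3L:16779725-16779891, was shared with mus302, a gene named for the sensitivity of its mutants to mutagens. It had rank 883 in the optimal set, and ranks 1190 and 757 in replicates 1 and 2, and the summit lay 79 bp upstream of the mus302 start. The line carries a tagged copy of CG9705, and the part of the extra copy in this peak was not tested.

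Gene lists were counted by symbol, each gene once. Over all genes, 1686 of 13945 (12.1%) lay at a shared-promoter peak, and among the 4960 genes with a head to head partner within 1000 bp it was 1590 (32.1%). Because the member rule requires a neighbour, the second share is the closer reference for genes that have one. Cytoplasmic ribosomal protein genes stood above it, with 31 of 53 that have a head to head partner (58.5%; 60.4% and 58.5% in the replicates alone). Another 40 genes of this list, which has 86 in all, were at single-gene peaks only (46.5%), as were 975 of all 13945 genes (6.99%). The highest-scoring were RpS27/Nup37 at rank 48, RpL34b/CG8132 at rank 98 and RpL7/Ripalpha at rank 99.

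Mitochondrial ribosomal proteins had 27 of 58 genes with a head to head partner at members (46.6%; 41.4% and 48.3% in the replicates alone), and 2 more of the 73 in the list at single-gene peaks only (2.74%). Art3/mRpS10 at rank 7, CenG1A/mRpS23 at rank 31 and mRpL23/CG9004 at rank 65 led this list. V-ATPase genes, for the proton pump of acidic compartments, had 8 of 14 (57.1%), with 7 and 8 of 14 in the replicates alone, and were led by Vti1b/Vha100-2 at rank 1070. Aminoacyl-tRNA synthetases, which charge tRNAs, had 12 of 23 (52.2%, with 39.1% and 52.2% in the replicates alone), led by GluProRS/AP-1sigma at rank 537. With only 14 and 23 genes, the shares of these last 2 lists are not set apart from the 32.1% of all genes with a head to head partner.

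Mediator genes had 8 of 19 with a head to head partner at members (42.1%), led by MED27/elm at rank 450, and RNA polymerase subunits 8 of 20, led by CG10584/Polr3E at rank 384 and Polr2B/140up at rank 398. TBP-associated factors had 4 of 11 (36.4%), led by Pex6/Taf5 at rank 350, and Integrator 3 of 8 (37.5%; 5 and 4 of 8 in the replicates alone), led by Wdr24/IntS11 at rank 169. The proteasome had 10 of 24 (41.7%), led by Hat1/Rpn5 at rank 1524, and the respiratory chain and ATP synthase 17 of 43 (39.5%), led by ND-ASHI/Fum1 at rank 238. Translation initiation factors had 8 of 21 (38.1%), led by CG18428/eIF4EHP. The COP9 signalosome had 2 of 5 and the chaperonin 3 of 7. With so few genes a list, these shares lie near the 32.1% of all genes with a head to head partner.

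Nuclear pore genes had 4 of 18 (22.2%; 4 and 5 of 18 in the replicates alone) and Rab GTPases 3 of 16 (18.8%; 2 and 4 of 16), which with so few genes are likewise near that share. Chemoreceptors had 1 of 25 with a head to head partner, Ir60e beside CG13585 at rank 2143, and 1 of 179 in all. Cuticle genes had 0 of 9 with a head to head partner and 0 of 85 in all, and 9 genes are too few to set the first share apart from the 32.1% of all genes with such a partner. Only 10.6% of cuticle genes and 14.0% of chemoreceptors have a head to head partner, beside 79.5% of mitochondrial ribosomal proteins and 61.6% of cytoplasmic ones.

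**Figure D4:**
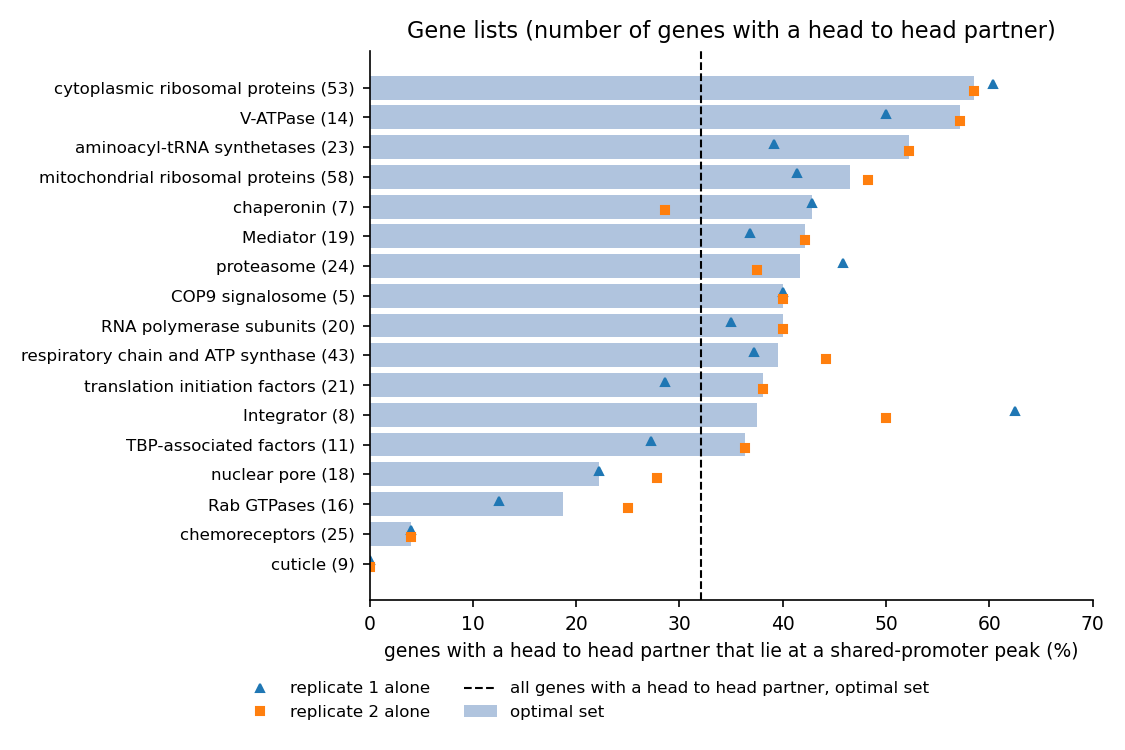
Share of the genes with a head to head partner that lie at a shared-promoter peak (x axis, %) for each of 17 gene lists (y axis, with the number of such genes), as bars for the optimal set and points for each replicate alone. The dashed line is the 32.1% of all genes with a head to head partner. Cytoplasmic ribosomal proteins reach 58.5% (31 of 53), and cuticle genes, with only 9 such genes, are at 0%.

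Of the 795 head to head members, 144 had a listed gene on at least 1 side and 6 had listed genes on both. The 6 were RpS27/Nup37, RpL28/eIF1 with its 2 summits, COX8/VhaM9.7-b at rank 1316, mRpL39/Prosbeta2 at rank 1813 and CSN8/RpS13 at rank 3193. COX8 belongs to respiratory complex IV and VhaM9.7-b to the V-ATPase, while mRpL39 is a mitochondrial ribosomal protein and Prosbeta2 a subunit of the proteasome core.

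Sequence letters were counted in windows of 100 bp each side of the summit, on both strands. The DRE occurred in 102 of 857 member windows (11.9%, interval 9.81 to 14.3), in 68 of 1105 single-gene windows (6.15%, interval 4.81 to 7.74) and in 7.39% of windows of the same length centred 100 bp upstream of all protein-coding starts. The replicates alone gave 10.9% and 11.8% for members and 4.88% and 6.72% for single-gene peaks. CGATA, the core bound by the insulator protein BEAF-32, lies within the DRE and so is not independent of it. It occurred in 46.9% of member windows, 36.2% of single-gene windows and 38.4% of all promoter windows. The Motif 7 core CANCNCTA occurred in 21.1% of member, 14.6% of single-gene and 9.65% of all promoter windows. Motif 1, GGTCACACT, was in 3.85% (interval 2.67 to 5.37) of member and 3.26% (interval 2.29 to 4.48) of single-gene windows, which overlap, and in 2.80% of all promoter windows. The replicates alone gave 3.40% and 4.62% for members and 1.75% and 3.93% for single-gene peaks.

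Repeat and initiator letters were scarcer at members. GAGAGAG was found in 5 of 857 member windows (0.583%), 60 of 1105 single-gene windows (5.43%) and 4.73% of all promoter windows, and CTCTCTCT in 0.233% of member, 2.44% of single-gene and 2.62% of all promoter windows. The initiator letters TCAGT were in 24.9% of member, 32.7% of single-gene and 33.6% of all promoter windows. TATAAA went the other way, with 42.6% of member, 31.9% of single-gene and 37.0% of all promoter windows, and the E-box CAGCTG was in 13.7% of member, 10.1% of single-gene and 11.6% of all promoter windows. Base composition moved with these values, and its part in them was not tested: the mean GC content was 34.2% in member, 37.0% in single-gene and 38.6% in all promoter windows. In the replicates alone the GAGA share was 0.755% and 0.788% of member windows and 5.71% and 5.59% of single-gene windows.

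**Figure D5:**
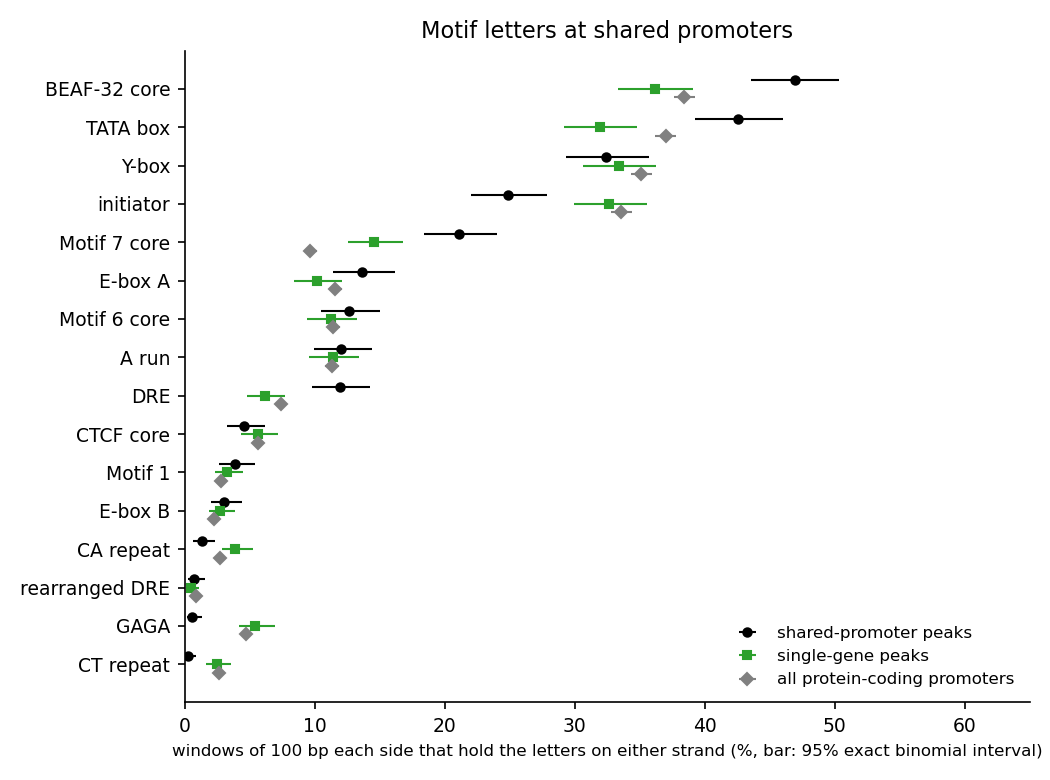
Share of windows of 100 bp each side that hold each set of motif letters on either strand (x axis, %, with 95% exact binomial intervals) at shared-promoter peaks, single-gene peaks and all protein-coding promoters, for 16 motifs (y axis; E-box A and E-box B are the E-boxes of different central letters). Shared-promoter windows lie to the right for the DRE (11.9%), the BEAF-32 core (46.9%), the Motif 7 core (21.1%) and the TATA box (42.6%), and to the left for the initiator (24.9%) and GAGA (0.583%).

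Among head to head pairs at most 500 bp apart, the midpoint windows of pairs with an optimal summit were set beside those of pairs without one. The DRE was in 10.6% of 781 pairs with an optimal summit, in 13.0% of 910 pairs with a relaxed peak only and in 5.32% of 263 pairs with no peak in any list. Motif 1 was in 2.69%, 8.46% and 4.94% of these classes, in the same order, and the Motif 7 core in 18.4%, 12.9% and 13.7%. CGATA was in 45.3%, 49.1% and 43.0%, and TATAAA in 42.1%, 37.4% and 39.9%. For both, the intervals of optimal pairs and of pairs with no peak overlapped. The initiator letters TCAGT were in 25.9%, 35.7% and 39.5%. GAGAGAG was in 1.02%, 0.879% and 11.0%. So in these midpoint windows DRE and Motif 1 letters were no more frequent at optimal pairs than at pairs with a relaxed peak only. GAGA letters were concentrated in pairs with no peak. The windows had the same length at all gap widths, while the share of pairs bound differed with the gap, so the classes differ in gap width. Mean GC content differed too, at 32.6%, 34.4% and 38.0% in the same order. The part of gap width and base composition in these motif shares was not tested.

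Members that hold the DRE, CGATA or Motif 1 did not score higher than the rest. The median percentile was 51.1 for 102 members with a DRE and 56.6 for 755 without, and 49.8 for 402 members with CGATA and 61.3 for 455 without. For CGATA, replicate 1 alone gave 48.5 with and 60.4 without, and replicate 2 alone 49.3 with and 61.2 without. The 33 members with Motif 1 had a median of 40.2 and the 824 without it 55.9, but in replicate 1 alone the values were 51.5 and 56.1. Members with TATAAA scored higher, with a median of 58.4 for 365 members with these letters and 53.5 for 492 without. Replicate 1 alone gave 58.2 with and 53.4 without, and replicate 2 alone 58.8 with and 52.8 without. Single-gene peaks of the optimal set went the same way, at 52.2 with TATAAA and 47.3 without, and 44.7 with CGATA and 50.9 without. So did the DRE (40.9 with and 49.0 without) and Motif 1 (29.0 and 49.2). These differences are thus not particular to shared promoters. Among the other motifs, members with CAGCTG had a median of 47.6 (n = 117) and those without 56.7, and single-gene peaks 42.5 and 49.8. Members with AAAAAAAA had 60.2 (n = 103) and those without 55.1, whereas single-gene peaks had 45.4 and 48.8. The part of base composition in these scores was not tested. By gap width, the DRE share was 18.8% (18 of 96, interval 11.5 to 28.0) at 0 to 100 bp and 15.7% (13 of 83) at 100 to 200 bp. It was 11.4% (30 of 263) at 200 to 300 bp, 11.9% (34 of 286) at 300 to 500 bp and 7.46% (5 of 67, interval 2.47 to 16.6) at 500 to 1000 bp. The intervals of all these ranges overlapped, so no trend is read from them.

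The limit of 500 bp cuts through a continuum. Just inside it, CG30349/CCT8 (rank 2317) and CG3309/XRCC1 (rank 3181) had their second start 500 bp from the summit and Fatp1/Lrr47 (rank 2387) 495 bp. Just outside, RabGGTb/Sbat (rank 3314) missed it by 1 bp, vig2/TTLL5 (rank 2009) had it at 504 bp and RpL31/CG12929 (rank 567) at 506 bp, so these count as single-gene peaks.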

How the data were processed

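The deposited lists are in narrowPeak format on dm6, per the file headers and notes: relaxed lists of 30000 peaks for replicate 1, replicate 2 and the pool of both, and an optimal set of 3533 peaks thresholded on the irreproducible discovery rate (IDR). Chromatin had been sheared by sonication to 200 to 800 bp, per the labels. The sources used here name no aligner, peak caller or IDR threshold. For every peak the deposited score, the caller's signal value, ranked peaks within a list; the deposited −log10 p and q values ranked none, as q reaches a ceiling.

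Summits were set against 19607 start positions of 13945 protein-coding genes from Ensembl release 115 (BDGP6.54). A gene is represented by the start nearest to the summit. Opposite strands with the minus-strand start on the left are head to head; otherwise pairs whose transcripts overlap are overlapping, and the rest tandem or tail to tail. Annotated pairs are genes whose closest starts lie within 1000 bp. The limits were 500 bp for summits, 100 bp for recurrence and 100 bp each side for motifs, searched as letters.

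Members, the 17 gene lists, 16 motifs and ranges were chosen with earlier results of these data known. Named are the 15 highest-scoring members that recurred, the highest-scoring of each arrangement and gene list, those with most genes, and 3 on each side of the 500 bp limit, plus CG9705. The alternatives were other windows, 1 start per gene, stricter peaks, other overlap rules and each replicate alone. Functions were tested on simulated data with planted summits and motifs. All steps ran in Python 3.11.15 with pandas 2.3.3, numpy 2.4.6 and scipy 1.17.1, and figures were drawn in matplotlib 3.10.9. Transcript levels and read-level signal were not analysed here.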

Additional observations from a re-analysis of the deposited data

How the results depend on the processing

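No paired analysis was possible because there was 1 group. Values from 1 replicate alone ranged from 22.5% to 25.1% for the share of peaks at shared promoters, 92.1% to 93.2% for head to head members, 84.4% to 85.3% for summits between the starts, 34.3% to 37.8%, 12.1% to 14.7% and 8.97% to 9.54% for head to head pairs, tandem pairs and isolated genes bound, 10.9% to 11.8% for the DRE and 3.40% to 4.62% for Motif 1. They were both 55.8 for the median score percentile, and 83.7% to 92.5% for recurrence, which is higher because 1 replicate is asked and not both.

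With the 1766 higher-scoring peaks, 27.3% were at shared promoters, 86.6% of head to head summits lay between the starts, 96.1% of members recurred, the DRE share was 11.0% and the Motif 1 share 2.90%; with fewer peaks, 20.9% of head to head pairs, 6.21% of tandem pairs and 4.62% of isolated genes were bound, and the median percentile within those peaks was 48.4. A limit of 250 bp gave 16.1% at shared promoters, 91.6% head to head, 82.4% between the starts, 11.6% of tandem pairs and 6.98% of isolated genes bound, a median percentile of 59.1 and a DRE share of 12.6%. A limit of 1000 bp gave 30.1%, 89.2% and 83.0% for the first 3 of these and a median percentile of 54.1. One start per gene gave 90.05% head to head, 79.7% between the starts and 8.16% of isolated genes bound, and 1 window of equal length gave 8.76% of tandem pairs. Reciprocal overlap of 50% gave a recurrence of 65.1%. Motif windows of 50 and 150 bp each side gave 6.18% and 17.7% for the DRE and 1.40% and 7.35% for Motif 1, as fewer or more bases were searched. For the other changes the cause was not tested. The size of the shared class thus rests on the limit chosen, while head to head pairs were bound more often than tandem pairs and isolated genes under each alternative that was run for all 3. Depth is unknown, so weak sites cannot be told from absent ones.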
